A study of Mus musculus with 18 samples.

Results

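Malat1, Neat1, Kcnq1ot1, Gas5, Snhg1, Snhg5 and Snhg12 are 7 mouse noncoding RNA genes that act in the nucleus or carry small nucleolar RNAs (snoRNAs) in their introns. They were taken by gene symbol from a table of 51499 assembled loci, and each of the 7 symbols matched 1 locus. Malat1, Neat1 and Kcnq1ot1 had a row of their own, whereas the rows of Gas5, Snhg1, Snhg5 and Snhg12 also listed 9, 8, 2 and 3 symbols of small RNAs, so that 1 value covers host and small RNAs together. The value is the FPKM (sequenced fragments, corrected for the length of the transcript and the size of the library) that the authors deposited, 1 for each group of libraries.

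RNA was sequenced from mouse embryonic fibroblasts, connective tissue cells grown in culture, in 18 libraries that the labels place in 6 groups of 3. The cells were labelled Ago2+/+ or Ago2-/-, where Ago2 encodes the Argonaute protein that cuts RNA in RNA interference. Within each genotype label, cells received DMSO, the solvent, tunicamycin, an inhibitor of protein N-glycosylation in the endoplasmic reticulum (ER), or thapsigargin at 500 nM, an inhibitor of the calcium pump of the ER. All groups were grown for 3 d, and the paper states that the stressors were added after this growth, for 6 h. Cells in the 3 groups labelled Ago2+/+ carry the name DCR1 in the titles, and no reason was found in the sources used. The Ago2 allele, the number of clones and whether replicates were separate cultures are likewise not stated in them. The study asked how the RNA interference machinery shapes the RNAs of ER-stressed cells.

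Genotype labels and values went against each other, so every group name below is a label only. With DMSO, Ago2 itself had 22.1 FPKM under the label Ago2+/+ and 5.61 under Ago2-/-. Tunicamycin groups showed 5.75 and 15.5 FPKM, and thapsigargin groups 17 and 20.7, in the same order. For 4 libraries the genotype labels conflict, and the pooled values do not allow these to be left out. Over the 11929 loci averaging 1 FPKM or more, the 6 groups formed 3 close pairs that cross the labels. Ago2+/+ tunicamycin paired with Ago2-/- DMSO, Ago2+/+ thapsigargin with Ago2-/- tunicamycin, and Ago2-/- thapsigargin with Ago2+/+ DMSO. Between 0.998% and 1.87% of loci differed at least 2-fold within these pairs, against 12.9% to 17.9% in the other 12 combinations. Among fibroblast markers, 9 of 14 (Col1a1, Col1a2, Col3a1, Vim, Fn1, S100a4, Prrx1, Twist1 and Twist2) reached 1 FPKM in all 6 groups, and their whole list summed to between 3070 and 4060 FPKM. Single markers varied far more than this sum, Col1a1 from 5.97 to 651 FPKM, Fn1 from 46.4 to 600 and S100a4 from 285 to 1970. Pdgfrb, Pdgfra and Dcn were under 1 FPKM in some groups but not in all. Thy1 and Lum stayed under 1 FPKM throughout. Summed levels of 4 contractile markers (Acta2, Tagln, Cnn1 and Myh11) were 2420 and 1800 FPKM in Ago2+/+ thapsigargin and Ago2-/- tunicamycin, but 2.23 to 6.42 FPKM in the other 4 groups. All listed epithelial, endothelial, erythroid and neural markers, and 4 of 5 leukocyte markers, stayed under 1 FPKM. The fifth leukocyte marker, Cd68, reached 1 FPKM in all groups.

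Long noncoding RNAs act without being translated. Malat1 gathers in nuclear speckles, domains rich in splicing factors, and Neat1 is the scaffold on which paraspeckles, another kind of nuclear body, assemble. Kcnq1ot1 is transcribed antisense to Kcnq1 from the paternal chromosome and silences imprinted neighbours in cis. Gas5, Snhg1, Snhg5 and Snhg12 are spliced hosts whose introns yield snoRNAs, the guides that direct methylation or pseudouridylation of ribosomal RNA. The spliced exons of such hosts are known targets of nonsense-mediated decay, a pathway coupled to translation, and their transcription often starts at a pyrimidine tract shared with ribosomal protein genes.

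The snoRNA cargo defines the 4 hosts, and its sequences are shown because the deposited rows merge it with the host. GENCODE vM21 (GRCm38, the build of the deposited table) places 25 snoRNA gene entries inside them, and all 25 lie in an intron of the host transcript with the most exons. Gas5 has 10 entries in 9 of 11 introns, Snhg1 has 8 entries in 8 of 9 introns, Snhg5 has 2 in 2 of 5 introns and Snhg12 has 5 in 4 of 4 introns. The 2 annotation entries for Snord80 in Gas5 and the 2 for Snora16a in Snhg12 overlap each other. Box C/D snoRNAs, the methylation guides, carry a C box near the 5′ end and a D box near the 3′ end. ATGATGA or GTGATGA, taken as the C box, together with CTGA within the last 20 bases, taken as the D box, was found in 8 of 10 Gas5 entries, 5 of 8 Snhg1 entries, both Snhg5 entries and 1 of 5 Snhg12 entries. Entries with a Snora name, all of them in Snhg12, were counted as without boxes by name, whatever their sequence. The sequences below are the annotated transcripts, 5′ to 3′, with the C and D boxes in capitals. Snord47 and Snord80 represent Gas5, Snord22 represents Snhg1 and holds only the D box letters, Snord50a and Snord50b are the whole cargo of Snhg5, and Snord99 is the box C/D guide of Snhg12.
Snord47, chr1:161038082-161038158, plus strand: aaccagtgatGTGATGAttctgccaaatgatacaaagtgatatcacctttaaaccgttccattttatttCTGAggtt
Snord80, chr1:161037601-161037681, plus strand: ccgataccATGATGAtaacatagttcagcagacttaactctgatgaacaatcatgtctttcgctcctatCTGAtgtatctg
Snord22, chr19:8725866-8725991, plus strand: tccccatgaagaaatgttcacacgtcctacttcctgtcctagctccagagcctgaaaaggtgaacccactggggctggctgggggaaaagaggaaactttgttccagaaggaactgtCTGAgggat
Snord50a, chr9:88521529-88521600, minus strand: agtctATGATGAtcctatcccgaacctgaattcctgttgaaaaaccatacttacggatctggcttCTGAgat
Snord50b, chr9:88521797-88521868, minus strand: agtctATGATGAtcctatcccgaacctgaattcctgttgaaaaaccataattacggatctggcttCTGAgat
Snord99, chr4:132310691-132310764, plus strand: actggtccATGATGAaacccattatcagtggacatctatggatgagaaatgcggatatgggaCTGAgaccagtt
Snord50a and Snord50b are 72 bases long and differ at 1 position, C50A, counted from 1 at the 5′ end of Snord50a. The map of the 4 hosts shows the alternation of short exons and snoRNA-bearing introns.

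**Figure D1:**
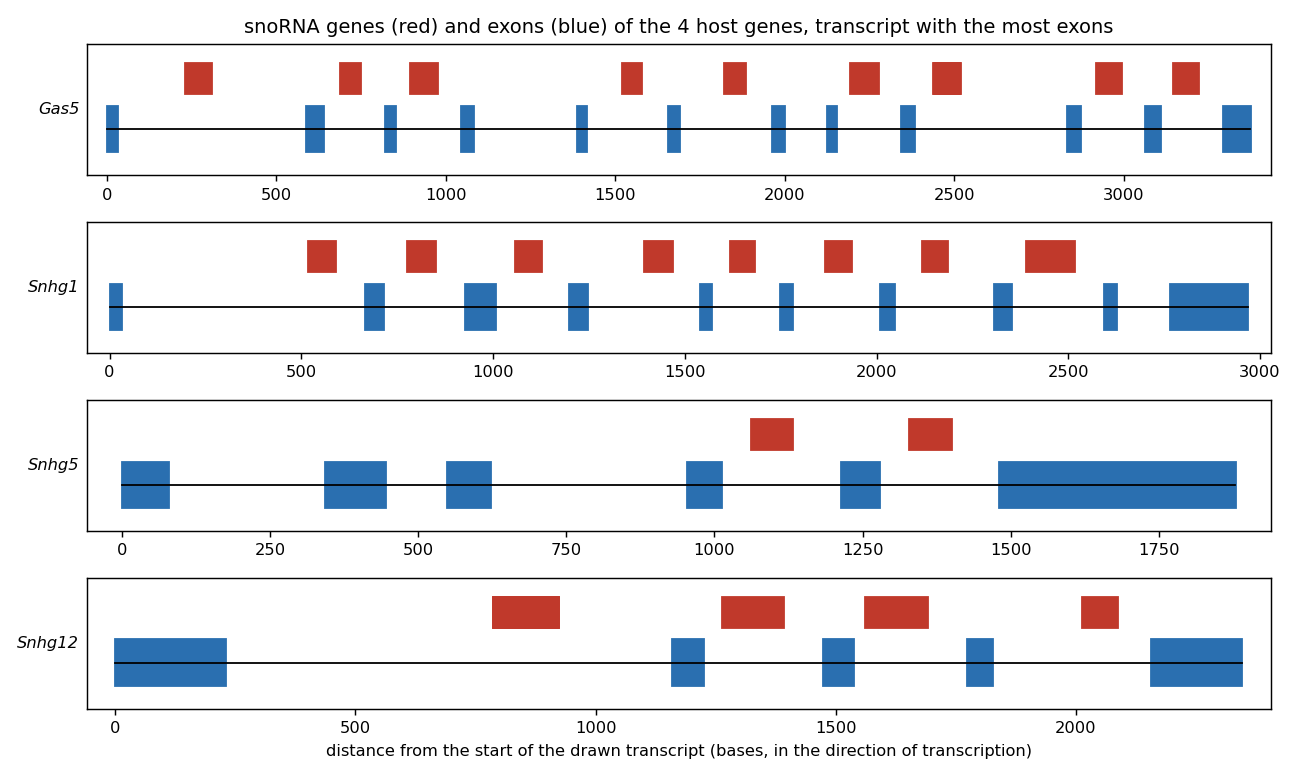
Exons (blue) and snoRNA genes (red) of Gas5, Snhg1, Snhg5 and Snhg12, drawn to scale along the transcript with the most exons; the x axis is the distance from its start in bases, in the direction of transcription. Each of the 25 snoRNA entries falls between exons, and in Gas5 they occupy 9 of 11 introns.

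Of the 7 genes, 6 were abundant and Kcnq1ot1 was not. Ranked by mean FPKM over the 6 groups among all 51499 loci, Gas5 was at rank 192, Snhg1 at 243, Neat1 at 582, Snhg12 at 966, Snhg5 at 1094 and Malat1 at 1101. Kcnq1ot1 was at rank 14511 with a mean of 0.22 FPKM, below the minimum of 1 FPKM used for calls, and its values go against the label abundant. FPKM is scaled for transcript length, but the rows of the 4 hosts merge long and short RNAs, so their ranks are not strictly comparable with those of Malat1 and Neat1. With 1 value per group there is no replicate spread, so neighbouring values in the orders given below cannot be separated by a test.

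**Figure D2:**
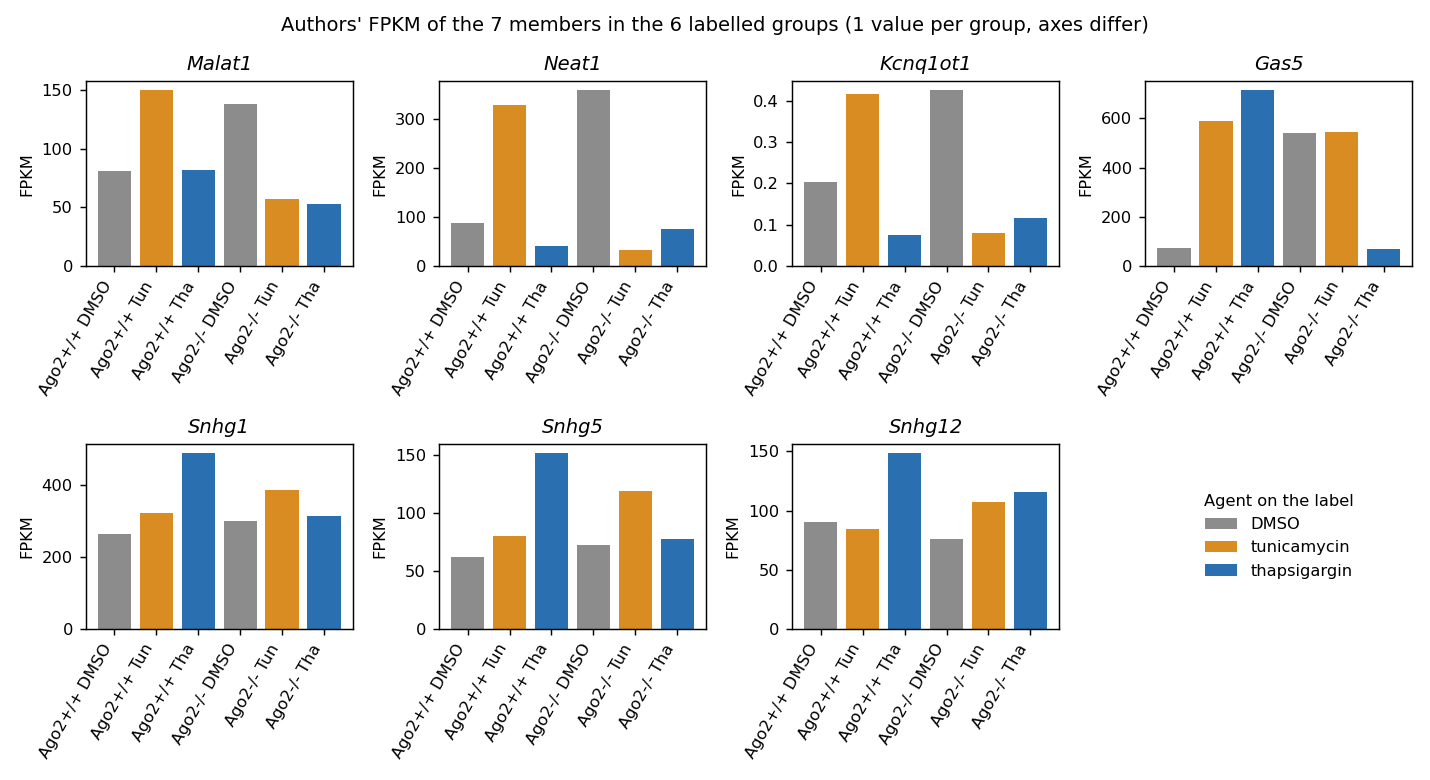
FPKM (y axis, 1 authors' value per group, scale differing between panels) of the 7 genes in the 6 labelled groups (x axis), coloured by the agent on the label. Gas5 is at 70.4 and 72.8 FPKM in 2 groups and between 541 and 715 in the other 4, and Neat1 is highest in Ago2-/- DMSO and Ago2+/+ tunicamycin.

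Neat1 (ENSMUSG00000092274) lies on chromosome 19 at 5824708 to 5845478 on the minus strand and spans 20771 bases. Its long isoform, which builds paraspeckles, and its short isoform share the same start and cannot be told apart in a value per gene. Neat1 was at 88.9, 329 and 40.8 FPKM in Ago2+/+ DMSO, tunicamycin and thapsigargin, and at 360, 33.0 and 75.4 FPKM in Ago2-/- DMSO, tunicamycin and thapsigargin. The values thus fell into 3 levels, one per close pair, with 10.9-fold between the highest and the lowest. Within the pairs the log2 ratio of FPKM + 1 was 0.30 at most in size. The groups with the lowest Neat1, Ago2+/+ thapsigargin and Ago2-/- tunicamycin, were those with the high contractile marker sums given above, whose part in the difference was not tested.

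Malat1 (ENSMUSG00000092341) lies 22035 bases from Neat1, at 5795690 to 5802672 on the same strand, and spans 6983 bases. It reached 81.0, 150 and 81.8 FPKM in Ago2+/+ DMSO, tunicamycin and thapsigargin, against 138, 57.5 and 53.1 FPKM in Ago2-/- DMSO, tunicamycin and thapsigargin. The range was 2.82-fold, smaller than that of Neat1, although both were highest in the pair formed by Ago2+/+ tunicamycin and Ago2-/- DMSO. Within the close pairs the log2 ratio of Malat1 was 0.50 between Ago2+/+ thapsigargin and Ago2-/- tunicamycin (Neat1 0.30), -0.60 between Ago2-/- thapsigargin and Ago2+/+ DMSO (Neat1 -0.23), and 0.12 between Ago2+/+ tunicamycin and Ago2-/- DMSO (Neat1 -0.13). Malat1 and the long Neat1 isoform end in a structure other than a poly(A) tail, and the sources used do not state whether the libraries were made from poly(A) RNA or after removal of ribosomal RNA.

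Kcnq1ot1 (ENSMUSG00000101609) is annotated as 1 unspliced antisense transcript of 93092 bases on chromosome 7, 143203458 to 143296549, minus strand, inside Kcnq1. Its values were 0.203, 0.417 and 0.0757 FPKM in Ago2+/+ DMSO, tunicamycin and thapsigargin. In Ago2-/- DMSO, tunicamycin and thapsigargin it was listed at 0.426, 0.0809 and 0.116 FPKM. The order of the groups by close pair was that of Neat1, at levels under 1 FPKM where the pseudocount of 1 flattens ratios. Kcnq1, the potassium channel gene on the opposite strand, was at 0.0134 to 0.204 FPKM. The rows of both genes carry the same assembled region, 143106362 to 143427042. Library strandedness is not stated in those sources, so reads of the 2 overlapping genes cannot be assigned to a strand.

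Gas5 (ENSMUSG00000053332) lies on chromosome 1 at 161034422 to 161038539, plus strand, with a transcript of 12 exons and 502 spliced bases. Its deposited row carries a wider assembled region, 160978585 to 161038539, which the separate row of Zbtb37 also carries. Its values fell into 2 levels. In Ago2+/+ DMSO and Ago2-/- thapsigargin it was at 72.8 and 70.4 FPKM. In the other 4 groups it was at 587 (Ago2+/+ tunicamycin), 715 (Ago2+/+ thapsigargin), 541 (Ago2-/- DMSO) and 544 FPKM (Ago2-/- tunicamycin). The highest and lowest values differed 10.2-fold. Zbtb37, which starts next to Gas5 on the other strand and encodes a zinc finger protein, was at 2.58, 6.93 and 2.52 FPKM in Ago2+/+ DMSO, tunicamycin and thapsigargin and at 6.77, 3.18 and 2.1 in Ago2-/- DMSO, tunicamycin and thapsigargin. Zbtb37 was therefore highest in only part of the groups with high Gas5, Ago2+/+ tunicamycin and Ago2-/- DMSO. In Ago2+/+ thapsigargin and Ago2-/- tunicamycin, where Gas5 was also high, Zbtb37 was at 2.52 and 3.18 FPKM.

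Snhg1 (ENSMUSG00000108414, chromosome 19, 8723475 to 8726443, plus strand) had the second highest mean FPKM of the 7. It was at 264, 323 and 491 FPKM in Ago2+/+ DMSO, tunicamycin and thapsigargin, and at 300, 388 and 313 FPKM in Ago2-/- DMSO, tunicamycin and thapsigargin. Its range of 1.85-fold was the narrowest of the 7. Slc3a2, a subunit of amino acid transporters that is transcribed away from Snhg1 on the minus strand, was at 340 to 615 FPKM and highest in the same group as Snhg1, Ago2+/+ thapsigargin.

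Snhg5 (ENSMUSG00000097195, chromosome 9, 88521050 to 88522929, minus strand) was at 62.0, 80.5 and 152 FPKM in Ago2+/+ DMSO, tunicamycin and thapsigargin. Values of 72.2, 119 and 77.1 FPKM were listed for Ago2-/- DMSO, tunicamycin and thapsigargin. The order of the 6 groups was the same as for Snhg1, with a wider range of 2.45-fold. Both genes were highest in the 2 groups with the high contractile marker sums, whose part was not tested.

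Snhg12 (ENSMUSG00000086290, chromosome 4, 132308623 to 132311024, plus strand) stood at 90.6, 84.1 and 149 FPKM in Ago2+/+ DMSO, tunicamycin and thapsigargin and at 75.7, 107 and 116 FPKM in Ago2-/- DMSO, tunicamycin and thapsigargin. Ago2+/+ thapsigargin was again the highest group, with a range of 1.97-fold. Snora16a, in the first intron of Snhg12, has a row of its own at 1.80 to 6.11 FPKM and was also highest in that group.

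Start regions of 6 of the 7 genes are given by RefSeq (GRCm38.p6), with no entry for Neat1 among 32851 windows of 300 bases. They are shown because both the host genes and the stress response are known for elements near the start. Each sequence runs from 60 bases before the annotated start to 40 after it, 5′ to 3′ on the transcribed strand. Capitals mark a match to TATAAA or TGACGTGG on either strand, and otherwise a C followed by at least 4 pyrimidines that begins within 5 bases of the start. Gas5 has 2 windows, and the one at the start of the snoRNA host transcript is shown.
Gas5, chr1:161035106-161035205, plus strand: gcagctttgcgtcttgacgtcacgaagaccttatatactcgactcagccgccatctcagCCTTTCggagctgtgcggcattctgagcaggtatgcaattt
Snhg12, chr4:132308618-132308717, plus strand: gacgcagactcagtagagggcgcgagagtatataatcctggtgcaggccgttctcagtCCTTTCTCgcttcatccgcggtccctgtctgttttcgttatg
Snhg5, chr9:88522858-88522957, minus strand: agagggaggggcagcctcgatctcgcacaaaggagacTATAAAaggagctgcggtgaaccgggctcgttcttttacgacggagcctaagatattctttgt
Snhg1, chr19:8723427-8723526, plus strand: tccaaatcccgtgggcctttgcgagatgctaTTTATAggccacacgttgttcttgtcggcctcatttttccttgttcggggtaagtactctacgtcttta
Kcnq1ot1, chr7:143296508-143296607, minus strand: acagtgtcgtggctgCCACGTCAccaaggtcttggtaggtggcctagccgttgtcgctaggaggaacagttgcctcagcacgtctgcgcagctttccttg
Malat1, chr19:5802633-5802732, minus strand: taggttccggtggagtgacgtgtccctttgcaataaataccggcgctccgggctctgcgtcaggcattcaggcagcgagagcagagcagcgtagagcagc
A pyrimidine tract within 5 bases of the start was found in Gas5 (6 bases, beginning 1 base before the annotated start) and Snhg12 (8 bases, beginning 2 bases before it), and in 18.3% of all windows. Exactly at the annotated start, the tract was found in Gas5 alone among the 7 member windows and in 2.51% of all windows. TATAAA was found in Snhg5, 23 bases before the start, and on the opposite strand in Snhg1, 29 bases before it, and in 13.6% of all windows. TGACGTGG, the letters of the unfolded protein response element, was found on the opposite strand of Kcnq1ot1, 45 bases before the start, and in 0.676% of all windows. The ER stress element, CCAAT and CCACG separated by 9 bases, was in none of the 7 member windows and in 0.119% of all. The CEBP-ATF element, TGATG followed by any base and AA, was likewise in none of the 7 and in 3.97% of all. These are matches of letters in a window and say nothing about binding.

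Under tunicamycin in the groups labelled Ago2+/+, Neat1 and Gas5 were higher and no gene of the 7 was lower. A call was a log2 ratio of FPKM + 1 of at least 1 in size, 2-fold, among loci averaging 1 FPKM or more, which 6 of the 7 genes passed. By that rule 2 of 6 were called, and 14% of all 11929 loci (7.7% higher and 6.32% lower). Gas5 differed by 2.99 and Neat1 by 1.88, while Malat1 was at 0.88, Snhg5 at 0.37, Snhg1 at 0.29 and Snhg12 at -0.11. Their median was 0.62, beside 0.005 over all loci.

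Thapsigargin in the same genotype label gave a different set. Gas5 (3.28) and Snhg5 (1.28) were higher and Neat1 (-1.10) was lower, so that 3 of 6 were called beside 12.9% of all loci (7.44% higher and 5.46% lower). Snhg1 and Snhg12 were at 0.89 and 0.71, and Malat1 at 0.01. All 4 snoRNA hosts were thus above 0 here and Neat1 was below it.

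In the groups labelled Ago2-/-, tunicamycin went with lower nuclear RNAs. Neat1 was lower by a log2 ratio of -3.41 and Malat1 by -1.24, which makes 2 of 6 beside 17.9% of all loci (9.5% higher and 8.36% lower). The snoRNA hosts were within 2-fold, Gas5 at 0.01, Snhg1 at 0.37, Snhg12 at 0.49 and Snhg5 at 0.71.

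Thapsigargin in these groups gave 3 lower of 6, beside 14.3% of all loci (6.31% higher and 7.99% lower). Gas5 was at -2.92, Neat1 at -2.24 and Malat1 at -1.36, whereas Snhg1 (0.06), Snhg5 (0.09) and Snhg12 (0.61) were within 2-fold. Gas5 was therefore 9.83-fold higher under thapsigargin in the groups labelled Ago2+/+ and 7.69-fold lower in those labelled Ago2-/-, from the FPKM without pseudocount.

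Set against Ago2+/+ with DMSO in both, Ago2-/- had Gas5 (2.88) and Neat1 (2.0) higher, 2 of 6 beside 14.4% of all loci (7.99% higher and 6.38% lower). The difference of Malat1 was 0.76. With tunicamycin in both, Neat1 (-3.28) and Malat1 (-1.37) were lower in Ago2-/-, 2 of 6 beside 17.3% (9.39% higher and 7.92% lower). With thapsigargin in both, Gas5 (-3.33) was lower, 1 of 6 beside 13.8% (5.58% higher and 8.19% lower), and Snhg5 at -0.97 was just inside 2-fold. These comparisons reuse the same 6 values, since each DMSO and stressor group enters several of them.

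Inside the 3 close pairs none of the 6 genes was called, beside 1.04%, 0.998% and 1.87% of all loci. Between Ago2+/+ tunicamycin and Ago2-/- DMSO the log2 ratios of the 7 genes lay between -0.13 and 0.15, between Ago2+/+ thapsigargin and Ago2-/- tunicamycin between -0.01 and 0.50, and between Ago2-/- thapsigargin and Ago2+/+ DMSO between -0.60 and 0.36. Since those pairs cross genotype and agent, none of the differences above can be tied to a genotype or an agent beyond its label.

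**Figure D3:**
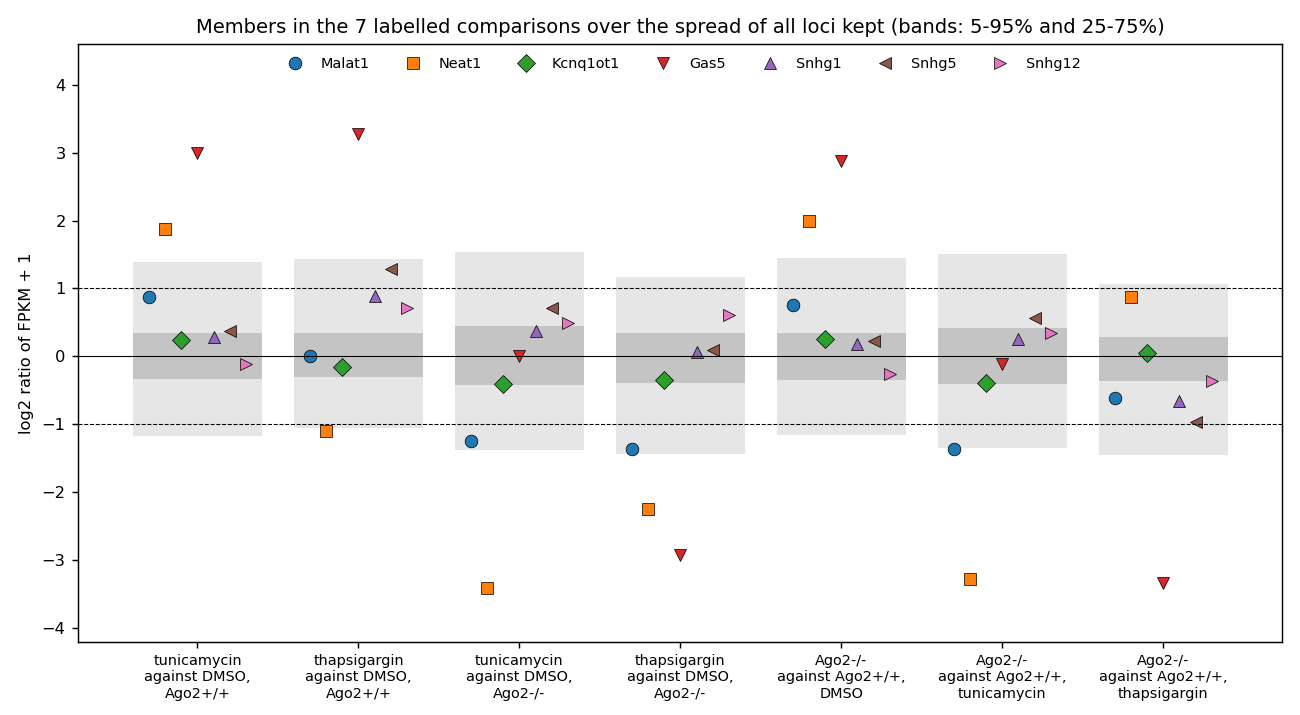
Log2 ratio of FPKM + 1 (y axis) of the 7 genes in the 7 labelled comparisons (x axis), over bands that hold the central 90% (light) and 50% (dark) of the 11929 loci kept; dashed lines mark 2-fold. Gas5 reaches 3.28 and -3.33 and Neat1 -3.41, outside the light band, while Snhg1 and Snhg12 stay within 2-fold in all 7 comparisons.

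Paraspeckle proteins did not share the range of Neat1. None of the 16 loci, all above the FPKM minimum, passed 2-fold in any of the 7 comparisons, beside the 12.9% to 17.9% of all loci given above, and their medians lay between -0.22 and 0.25. The 2 with the largest differences were Taf15 and Pspc1. Taf15, an RNA-binding protein of the FET family, was at 86.2 to 163 FPKM and highest in Ago2+/+ tunicamycin and Ago2-/- DMSO, as Neat1 was. Pspc1, a core paraspeckle protein, was at 20.1 to 34.9 FPKM and highest in Ago2+/+ thapsigargin.

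Of 24 nuclear speckle and splicing proteins, 23 passed the FPKM minimum and 1, Srsf10, was called. The call fell under tunicamycin in Ago2+/+ and between the genotypes with DMSO. That was 4.35% of the list in each, beside 14% and 14.4% of all loci, and the other comparisons had no call. Srsf10, a splicing regulator, was higher in Ago2+/+ tunicamycin (179 FPKM) and in Ago2-/- DMSO (186) than in Ago2+/+ DMSO (88.6). Srrm2, a scaffold of speckles, was at 128 to 248 FPKM and highest in Ago2+/+ tunicamycin, the group in which Malat1 was also highest.

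Nearby genes on chromosome 19 were compared next. Of 9 loci around Malat1 and Neat1, 8 passed the minimum, and 1 (12.5%) was called in each of the 7 comparisons, either Ltbp3 or Slc25a45, a share near or below the 12.9% to 17.9% of all loci. Ltbp3, which binds latent TGF-beta, was at 16.8, 45.4 and 32.7 FPKM in Ago2+/+ DMSO, tunicamycin and thapsigargin and at 52.6, 40.5 and 18.6 in Ago2-/- DMSO, tunicamycin and thapsigargin. It was low in the close pair in which Gas5 was low. Slc25a45, a mitochondrial carrier named here after its values were seen, was at 0.169 and 0.293 FPKM in the pair with the lowest Neat1 and at 1.95 to 2.26 elsewhere. Fam89b shares a row with Sssca1, at 87.8 to 150 FPKM, and was called in no comparison.

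**Figure D4:**
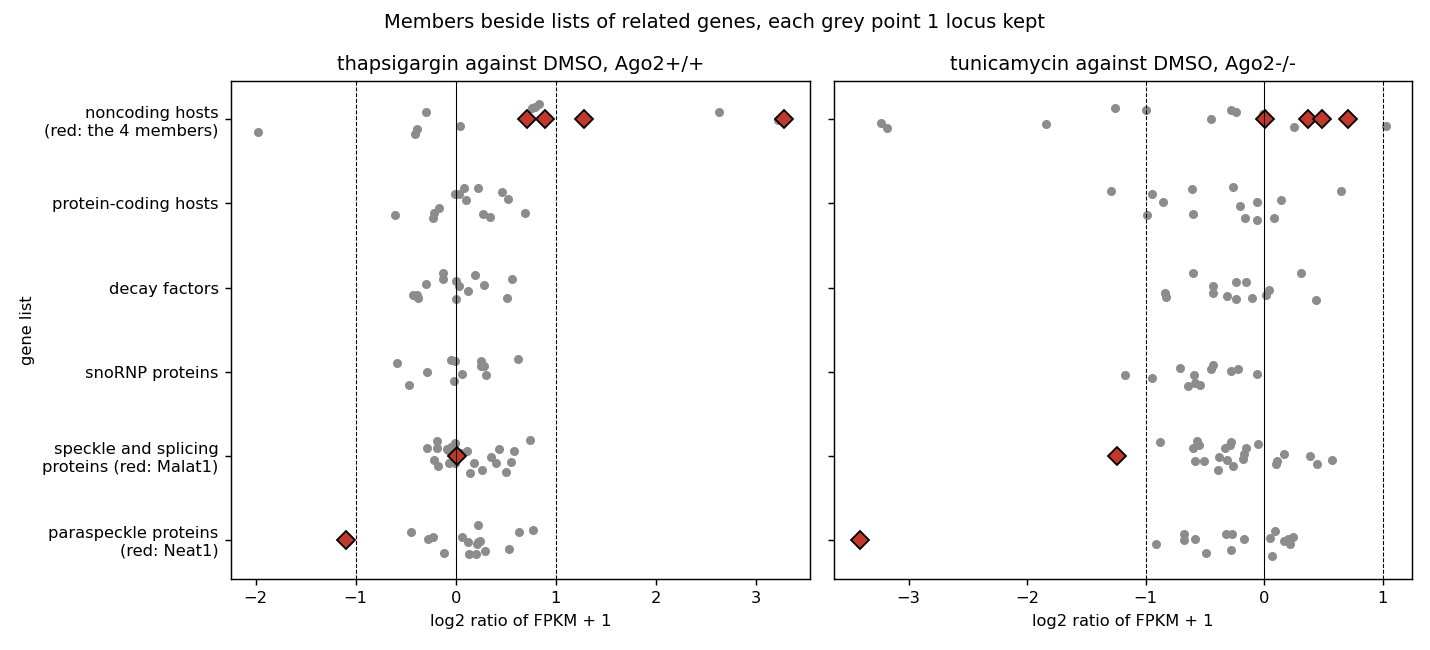
Log2 ratio of FPKM + 1 (x axis) of the loci of 6 gene lists (y axis, 1 grey point per locus kept) and of the related members (red), under thapsigargin in Ago2+/+ (left) and tunicamycin in Ago2-/- (right), dashed lines marking 2-fold. Neat1 lies at -1.10 and -3.41, below each of the 16 paraspeckle protein loci, and the noncoding hosts spread most widely. On the left, the hosts Snhg9 (3.22) and Snhg18 (2.63) are set against a group listed at 0, so these ratios rest on the pseudocount.

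Several other noncoding snoRNA hosts passed 2-fold, in groups that differed from gene to gene. From a list of 16 other hosts, 13 symbols were in the table, at 20 loci, of which 11 passed the minimum. In the order of the 7 comparisons above, 4, 2, 1, 0, 4, 0 and 0 of the 11 were called higher and 0, 1, 5, 5, 0, 4 and 2 lower, beside the 5.46% to 9.5% of all loci called in a direction. In the 3 comparisons with Ago2+/+ DMSO, 2 of those called higher, Snhg9 and Snhg18, were set against a group listed at 0. Snhg9 was listed at 0 in Ago2+/+ DMSO and was at 28.5, 8.32, 37.1, 3.07 and 0.333 FPKM in Ago2+/+ tunicamycin, Ago2+/+ thapsigargin, Ago2-/- DMSO, Ago2-/- tunicamycin and Ago2-/- thapsigargin. It was lowest in the pair in which Gas5 was lowest. Snhg7 was at 16.5, 27.2 and 3.44 FPKM in Ago2+/+ DMSO, tunicamycin and thapsigargin and at 20.8, 1.40 and 7.03 in Ago2-/- DMSO, tunicamycin and thapsigargin, so that its lowest pair was the one with the lowest Neat1. Among the others that passed 2-fold somewhere, named after their values were seen, Snhg6 and Snhg20 were highest in Ago2+/+ tunicamycin and Ago2-/- DMSO, Dancr was called lower once, and Snhg18 was listed at 0 in Ago2+/+ DMSO and at 6.28 FPKM or less elsewhere. Snhg8, Snhg15, Snhg17, Zfas1 and Epb41l4aos were within 2-fold throughout.

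**Figure D5:**
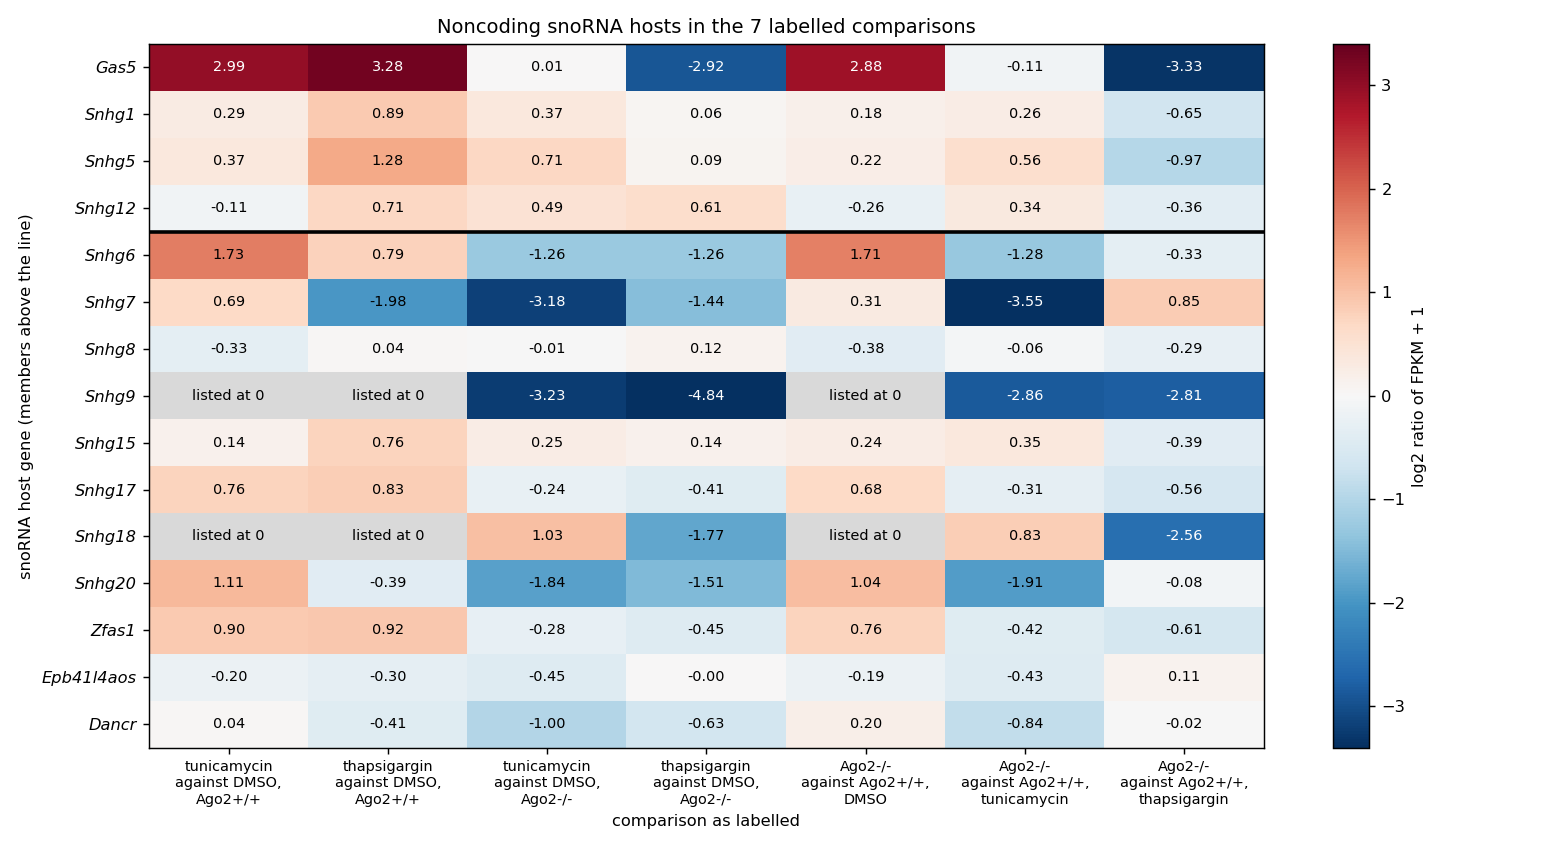
Log2 ratio of FPKM + 1 (colour and printed value) of the 4 members and 11 other noncoding snoRNA hosts that passed the FPKM minimum (y axis) in the 7 labelled comparisons (x axis); grey cells have a group listed at 0 and no ratio. Gas5 (-3.33), Snhg7 (-3.55) and Snhg9 (-4.84) hold the darkest blue cells, and Snhg8 and Epb41l4aos are pale in every column.

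Few genes of the related machinery passed 2-fold, in short lists read beside the 12.9% to 17.9% of all loci past it in the 7 comparisons. The 14 protein-coding hosts had 1 locus (7.14%) called in 2 comparisons, Ncl, and the median over the list lay between -0.23 and 0.24. Ncl, the nucleolar protein nucleolin, was at 445 to 1090 FPKM and lowest in Ago2-/- tunicamycin, and Hspa9, a mitochondrial chaperone, was at 326 to 649 FPKM and lowest there too. Of 12 proteins of the snoRNA particles, only Nop10 (8.33%) was called. It was lower in Ago2-/- tunicamycin (24.2 FPKM) than in Ago2-/- DMSO (55.6) and Ago2+/+ tunicamycin (49.4). Nop56, a core protein of box C/D particles, was at 290 to 560 FPKM. None of 14 nonsense-mediated decay factors was called in the 7 comparisons. Smg8, a member of the complex that controls this decay, was at 11.6 to 21.4 FPKM. Over 12 loci that join a snoRNA symbol with another gene, a set that holds the 4 host members, 9 passed the minimum, and between 1 and 3 were called in each comparison, beside the same 12.9% to 17.9% of all loci.

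In the Kcnq1 imprinted region 5 of 10 genes passed the minimum. Between 0% and 40% of the 5 were called per comparison, beside 12.9% to 17.9% of all loci, and 1 call makes 20%. The called genes were Phlda2 and Cdkn1c. Phlda2, an imprinted growth regulator, was at 7.43, 3.63 and 0.352 FPKM in Ago2+/+ DMSO, tunicamycin and thapsigargin and at 5.89, 0.949 and 13.8 in Ago2-/- DMSO, tunicamycin and thapsigargin. Cdkn1c, a cell cycle inhibitor named after its values were seen, was at 7.81 and 11 FPKM in Ago2+/+ thapsigargin and Ago2-/- tunicamycin, where Phlda2 was lowest, and at 0.186 FPKM or less elsewhere. Cd81, a tetraspanin, was at 46.5 to 90.2 FPKM and within 2-fold. Outside that region, 12 of 21 listed long noncoding RNA loci passed the minimum. Pvt1, the noncoding neighbour of Myc, shares a row with Gm27718, Gm27913 and Gm27957, so its value is not of Pvt1 alone. That row was at 285 FPKM in Ago2+/+ DMSO and at 17 in Ago2-/- thapsigargin, 2 groups that otherwise formed a close pair. It was at 47.9 to 90.6 in the other 4. 2900097C17Rik was at 22.9 to 44.5 FPKM.

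Likeness of pattern was measured as the root mean square difference over the 6 groups of log2(FPKM + 1), centred for each locus, with smaller values meaning more alike. Nearest to Gas5 among loci averaging 5 FPKM or more was Pmepa1 (0.148, beside a median of 1.45 over all such loci), followed by Gm12261 (0.215) and Dclk1 (0.219). Pmepa1, a membrane protein that limits TGF-beta signalling, was at 2.43 and 2.94 FPKM in the pair with low Gas5 and at 25.4 to 29.1 FPKM in the other 4 groups. Nearest to Neat1 were P3h2 (0.169, median 1.35), a row shared by Gm45716 and Mmd (0.177) and Chst1 (0.188). P3h2, a collagen prolyl hydroxylase, reached 21.6 FPKM in Ago2+/+ tunicamycin and 20.0 in Ago2-/- DMSO.

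For Malat1 the nearest loci were A430105I19Rik (0.131, median 0.613), 2700038G22Rik and Spaca6 (both 0.138). For Snhg5 they were Actg1 (0.0481, median 0.502), Gm8399 (0.0622) and Fhdc1 (0.0905). Actg1, a cytoplasmic actin, was at 886 to 2240 FPKM and highest in Ago2+/+ thapsigargin, as Snhg5 was. For Kcnq1ot1, whose ratios the pseudocount flattens, they were 2810403A07Rik, Usp8 and Tada1, genes that varied little. Among the members themselves Snhg1 and Snhg5 were closest, at 0.162. That left 0.54% of loci nearer to Snhg5 than Snhg1 was, and 3.66% nearer to Snhg1 than Snhg5 was. Snhg12 lay at 0.203 from Snhg1. Among the 4 host members, Gas5 was nearest to Snhg5, at 1.21, and 9.12% of loci lay nearer to Gas5 than Snhg5 did. Hosts outside the members that averaged 5 FPKM or more were counted among these loci, but their distances from Gas5 were not listed singly. Malat1 and Neat1 were 0.887 apart. That left 3.54% of loci nearer to Neat1 than Malat1 was, but 86.6% nearer to Malat1 than Neat1 was.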

How the data were processed

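The deposited table holds 772485 rows, 51499 loci in each of 15 pairs of the 6 groups, as written by Cuffdiff. The values used are the FPKM that the authors deposited, 1 per locus and group over its 3 libraries, identical in every pair. Per the submitters' processing notes the tools were FastQC 0.11.7, HISAT2 2.1.0, StringTie 1.3.4d and Cuffdiff 2.2.1, on GRCm38. The table's fold changes, test statistics, p-values, q-values and significance flags are the authors' own comparisons and were not used. No count per library is given and FPKM pooled over libraries keeps no read steps, so depth is unknown and no SD, interval or test was possible. Precision is limited by this single value.

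Ratios were log2(FPKM + 1) differences, called at 2-fold among 11929 loci averaging 1 FPKM or more, and the script was tested on simulated data. FPKM scaling by Cuffdiff makes each value depend on all other loci of its group, and merged rows cannot separate host from snoRNA. Groups follow the titles. Gene positions and snoRNA sequences came from GENCODE vM21, start windows from RefSeq (GRCm38.p6). Computation used Python 3.11.15, pandas 2.3.3, numpy 2.4.6 and matplotlib 3.10.9. The members, gene lists and motifs were chosen with earlier results of these data known, and the C and D box search was added later. Named genes were the 7 members, Ago2, from each list the 2 loci with the largest ratio among those with a mean of at least 5 FPKM, and the 3 loci nearest in pattern to each member varying 2-fold or more. Of these, 1 list gene is not reported here. Neighbours on the genome were added after the annotation was read. Alternatives changed pseudocount, fold, scaling, filter and choice of loci.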

Additional observations from a re-analysis of the deposited data

Results flagged for a closer look

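Gas5 and Neat1 were each past 2-fold in opposite directions under 1 agent in the 2 genotype labels. Gas5 was higher under thapsigargin in the groups labelled Ago2+/+ (log2 ratio of FPKM + 1 of 3.28) and lower in those labelled Ago2-/- (-2.92). Neat1 was higher under tunicamycin in the groups labelled Ago2+/+ (1.88) and lower in those labelled Ago2-/- (-3.41). The difference between genotype labels was not tested, since each group has 1 pooled value. Of the 11929 loci kept, 559 (4.69%) were past 2-fold in opposite directions under thapsigargin and 812 (6.81%) under tunicamycin. The 3 close pairs of groups cross both labels, so a difference by genotype and a difference by group identity cannot be told apart.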

How the results depend on the processing

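Counts of the 7 genes past the fold were recomputed under 10 settings in each of 7 comparisons, and 60 of 70 counts stayed within 1.5 times the reported one. The setting that sums the loci of each gene could change nothing, because each gene has 1 locus. It is included in the totals of counts and of log2 ratios given here. At a fold of 4 the count was 1 instead of 2 under tunicamycin in Ago2+/+, 1 instead of 3 under thapsigargin in Ago2+/+, 1 instead of 2 under tunicamycin in Ago2-/- and 1 instead of 2 between the genotypes with tunicamycin, where fewer loci pass by construction. At a fold of 1.5 it was 5 under thapsigargin in Ago2+/+ and 5 between the genotypes with thapsigargin. With only loci that hold no other gene, which leaves Malat1 and Neat1, it was 1 under tunicamycin in Ago2+/+, 1 under thapsigargin in Ago2+/+, 1 between the genotypes with DMSO and 0 with thapsigargin. Of 245 recomputed log2 ratios, 235 moved by less than 1.5 times and none of those past 2-fold changed sign. The 10 that moved were of Kcnq1ot1, without a pseudocount or with 0.1. Median centring and upper-quartile scaling moved the median of all loci by at most 0.069.

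No paired analysis was possible because the table gives 1 pooled value per group, and leaving out single libraries was not run for the same reason. Depth is unknown, the ratios of Kcnq1ot1 depend on the pseudocount, and differences between neighbouring values of a gene carry no error.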
